A study of Homo sapiens with 12 samples.

Results

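The axon guidance ligands and receptors were taken from the deposited count table by their gene symbols. The members are the semaphorins of classes 3 to 7, the plexins, both neuropilins, the netrins, the UNC5 receptors, the SLIT and ROBO genes, the ephrins and EPH receptors, and DCC, NEO1 and DRAXIN. The rule found 71 genes among the 26485 of the table, and none of their values entered it. Of the 71, 56 passed the filter on low counts and were tested, and 15 were not. RNA came from RD, an established human cell line from a fusion-negative rhabdomyosarcoma, a tumour with features of developing skeletal muscle. The cells carried a doxycycline-inducible construct against NT5E, the gene of the ecto-enzyme CD73, and the 2 constructs are titled ish and ish2. The 4 groups were ish with Dox (10 ng/mL doxycycline), ish without Dox, ish2 with Dox and ish2 without Dox, each with 3 libraries and a treatment of 96 h. Every group carried a hairpin construct, and none had Dox with a non-targeting hairpin, so effects of the drug, of hairpin expression and of lower NT5E cannot be told apart. The labels do not say whether a construct is a single clone or a pool, or whether replicates were separate cultures. The p-values therefore measure the spread between these samples, which may be technical. In bulk RNA, fewer cells of a type and less RNA per cell cannot be told apart.

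Axon guidance cues are secreted or membrane-bound proteins that steer growing axons and migrating cells by attraction or repulsion. Semaphorins act mainly through plexins, with neuropilins as co-receptors for most of class 3, netrins act through DCC, NEO1 and the UNC5 receptors, SLITs act through ROBOs, and ephrins through EPH receptor tyrosine kinases, often with signals in both directions at a cell contact. Outside the nervous system the same families take part in vessel growth, in cell sorting at tissue borders and, in muscle, in innervation and in the migration of precursor cells.

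Promoter sequences are shown for 3 members that the results below turn on. SEMA7A changed in opposite directions in the 2 constructs, EPHA3 had the largest rise among members in ish, and DRAXIN fell about equally in both. Each sequence holds 250 bases before and 50 bases after the RefSeq gene start in GRCh38, read 5′ to 3′ on the gene's strand. They lie at chr15:74433909-74434208 (minus strand) for SEMA7A, chr3:89107371-89107670 (plus strand) for EPHA3 and chr1:11691460-11691759 (plus strand) for DRAXIN. Capitals mark matches on either strand to CAGCTG, the E-box form that MyoD and myogenin are known to bind, and to GGGCGG, the GC box, which reads CCGCCC on the other strand.
SEMA7A: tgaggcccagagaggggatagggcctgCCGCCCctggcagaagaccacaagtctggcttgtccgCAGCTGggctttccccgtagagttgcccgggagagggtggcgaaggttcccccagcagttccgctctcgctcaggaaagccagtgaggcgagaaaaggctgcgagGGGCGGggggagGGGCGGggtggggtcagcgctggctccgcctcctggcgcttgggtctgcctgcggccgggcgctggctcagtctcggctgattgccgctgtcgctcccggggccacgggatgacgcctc
EPHA3: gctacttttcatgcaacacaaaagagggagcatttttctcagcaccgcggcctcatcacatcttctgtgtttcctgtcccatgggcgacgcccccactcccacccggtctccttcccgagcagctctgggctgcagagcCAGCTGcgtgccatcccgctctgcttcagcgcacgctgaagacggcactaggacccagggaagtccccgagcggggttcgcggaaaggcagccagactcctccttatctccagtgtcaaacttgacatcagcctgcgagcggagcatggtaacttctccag
DRAXIN: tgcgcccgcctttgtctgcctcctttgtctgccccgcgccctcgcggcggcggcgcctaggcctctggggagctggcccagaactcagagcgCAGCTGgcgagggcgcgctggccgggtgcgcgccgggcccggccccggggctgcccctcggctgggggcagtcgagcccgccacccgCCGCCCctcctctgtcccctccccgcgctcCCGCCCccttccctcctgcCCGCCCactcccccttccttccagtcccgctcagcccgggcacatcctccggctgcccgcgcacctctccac
The promoters of SEMA7A, EPHA3 and DRAXIN each held 1 match to CAGCTG, beginning at position -186 in SEMA7A, -111 in EPHA3 and -158 in DRAXIN relative to the gene start. SEMA7A and DRAXIN also held 3 matches each to GGGCGG, and EPHA3 held 0. The start used here lies 97 bases from the start of the GENCODE reference transcript for EPHA3 and 19 bases from it for DRAXIN, and the starts coincide for SEMA7A. Of 47 tested members with a promoter in the table, 8 (17.0%) held CAGCTG, against 17.9% of all 35116 promoters. The 3 shown are among these 8, so they do not stand for the members as a whole. GGGCGG was in 40 of the 47 (85.1%), against 45.0% of all. TGACGTCA, the cAMP response element, was in 2 (4.26%) against 1.85%, and TGANTCA, the AP-1 site, was in 0, against 7.71%. All of these were searched on both strands, and the matches shown do not overlap. Each member was counted by 1 promoter, the nearest to its reference transcript start, and only tested members were counted. The 35116 promoters had neither limit, so the shares are not like for like. Such matches describe letters and not bound sites.

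NT5E, which the constructs target, had 1.94, 1.23 and 1.54 CPM in ish with Dox, against 14.9, 18.0 and 17.3 CPM in ish without Dox, where CPM is the read count scaled to library size with TMM factors. In ish2 it had 14.5, 15.2 and 14.1 CPM with Dox, against 24.1, 23.5 and 22.1 CPM without. As log2 fold changes, Dox over no Dox, these were -3.41 in ish (SE 0.11, edgeR adjusted p = 3.31e-25) and -0.67 in ish2 (SE 0.07, adjusted p = 4.62e-11). The ish2 effect minus the ish effect was 2.74 (edgeR adjusted p = 2.91e-19). Depth was 26566603 to 32692207 gene counts per library. The ish2 library without Dox numbered replicate 3 stood apart from its partners: its chi-square per degree of freedom against them was 3.74 and 4.23, and other replicate pairs lay between 1.34 and 2.72. Of 7 markers of the muscle lineage 6 were tested, and the other, MYF5, reached at most 1 read in any library. At an edgeR adjusted p under 0.05, 4 rose and 1 fell in ish, and 2 rose and 3 fell in ish2. Among them MYOD1 had 338.6 CPM in ish with Dox, 112.0 in ish without, 150.4 in ish2 with Dox and 133.6 in ish2 without. The 9 genes of terminal muscle differentiation all rose in ish, with a summed level of 4921 to 5311 CPM with Dox against 701.2 to 781.4 without, and all fell in ish2, with 251.1 to 266.5 against 605.6 to 692.6. The 5 genes of cycling cells all fell in ish, with 862.9 to 876.3 CPM with Dox against 1962 to 2029 without. In ish2, 4 of the 5 fell, with 1302 to 1325 CPM against 2006 to 2220. Of 8 neuron markers 5 were tested, and their sum, mostly the tubulin TUBB3, was 397.1 to 422.3 CPM against 260.0 to 262.5 in ish and 252.7 to 267.8 against 271.8 to 290.4 in ish2. TUBB3 and DCX, the latter with at most 14 reads in a library, rose in ish. In ish2 SYT1 rose, with 40.2 CPM with Dox against 25.4 without, while TUBB3 and SNAP25 fell. RBFOX3 was called in neither construct. Of the neuron markers not tested, STMN2 and GAP43 reached at most 1 read in any library and ELAVL3 at most 5. Of 7 endothelium markers 3 were tested, with sums of 6.80 to 7.51 CPM against 10.5 to 10.6 in ish and 10.9 to 11.2 against 11.4 to 12.1 in ish2, and KDR reached at most 1 read. In ish CLDN5 rose by 2.89 and TEK fell by 2.10 on the log2 scale, and in ish2 CLDN5 fell by 1.11. Of 6 fibroblast markers 5 were tested, with sums of 206.7 to 209 CPM against 350.8 to 365.6 in ish and 369 to 385.2 against 375.6 to 394.3 in ish2. The fibroblast markers THY1 and COL1A1, which make up most of that sum, fell in ish, while LUM and DCN rose. The part of these shifts in the values below was not tested.

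Levels between genes were compared per length, as CPM per kb of the reference transcript. In ish without Dox the order was led by SEMA6B at 43.1 CPM per kb, followed by PLXNB2 at 37.7, SEMA4C at 37.4, EPHA2 at 33.7, PLXNA1 at 33.3, EPHB4 at 31.6 and PLXND1 at 30.2. These genes encode 2 transmembrane semaphorins, 3 plexins and 2 EPH receptors. SEMA6C, ROBO1 and PLXNA2 completed the first 10, at 28.9, 27.8 and 27.8 CPM per kb. The same 10 led in ish2 without Dox, and 9 of them led when lengths were taken as the union of annotated exons. Of the 56 tested members, 15 reached 10 CPM per kb and 16 stayed below 1 CPM per kb. Among the lowest were both neuropilins, at 0.492 CPM per kb for NRP1 and 0.185 for NRP2, while the class 3 ligand SEMA3A, which binds NRP1, stood at 16.2. DCC, the attractive netrin receptor, had 1 read in 1 of the 12 libraries. Of the repulsive netrin receptors, UNC5D stood at 11.4 CPM per kb and UNC5B at 7.53, and the ligand NTN1 stood at 8.46. Their order depended on the length used: by the union of annotated exons UNC5D stood at 3.42, below UNC5B at 7.53 and NTN1 at 7.89. SLIT2 and SLIT3 were not tested and SLIT1 stood at 0.244 CPM per kb, beside 27.8 for the receptor ROBO1.

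**Figure D1:**
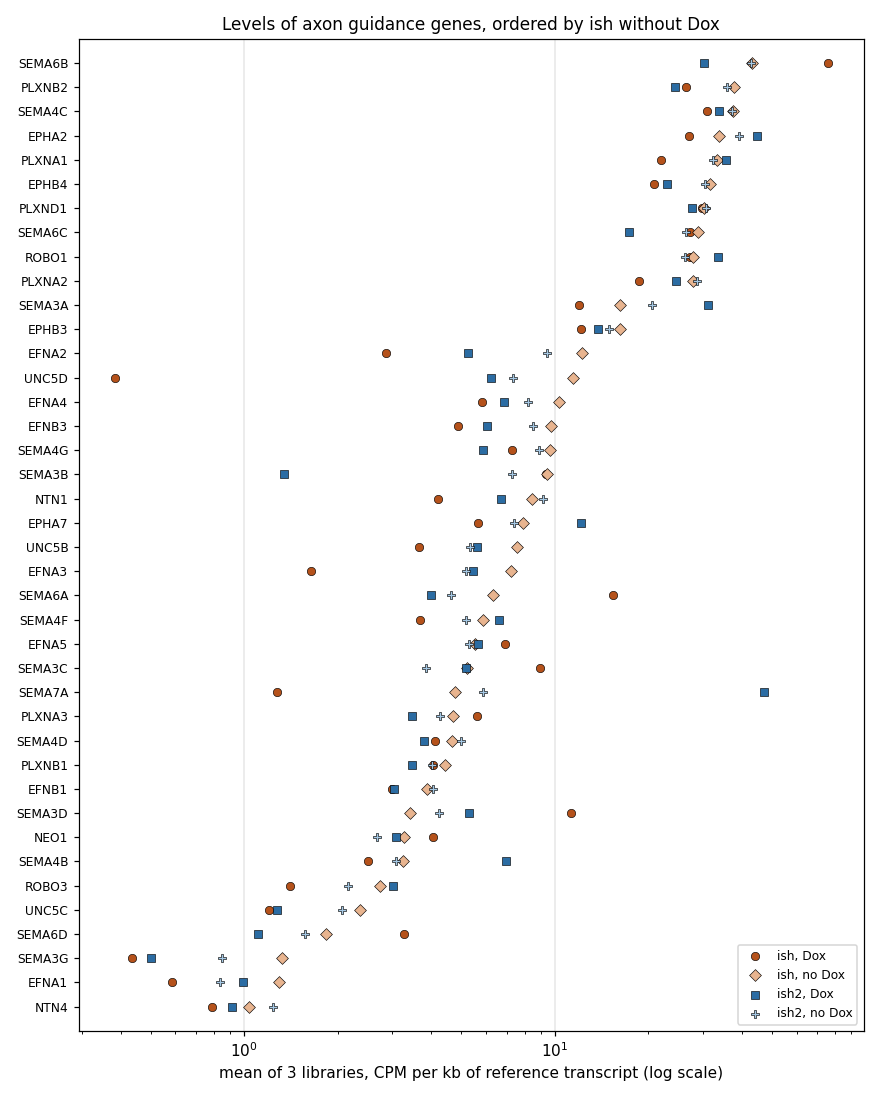
Level of the 40 members above 1 CPM per kb in ish without Dox, by gene (rows), as the mean of 3 libraries in CPM per kb of reference transcript on a log axis, for each of the 4 groups. SEMA7A in ish2 with Dox stands at 47.0 CPM per kb and UNC5D in ish with Dox at 0.383, both far from their levels in the other groups.

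With Dox in ish, members fell more often than they rose. A gene was called at an edgeR adjusted p under 0.05 over all 15206 tested genes. In ish 50 of the 56 tested members were called, against 78.6% of all tested genes, a share at which a call by itself says little. Of these, 12 members rose (21.4%, against 39.1% of all genes) and 38 fell (67.9%, against 39.5%). With a change of at least 2-fold in addition, 6 members rose (7.28% of all genes) and 15 fell (10.5% of all genes). The median log2 fold change of the tested members was -0.42, against -0.01 over all tested genes. Without overlap between the libraries, 13 members lay above and 38 below their levels without Dox, against 40.0% and 40.6% of all genes.

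In ish2 the directions were more even. There 48 of 56 were called, against 65.0% of all genes, with 20 higher (33.9% of all genes) and 28 lower (31.1% of all genes). At 2-fold, 12 were called (21.4%, against 6.14% of all genes), of which 9 rose (16.1%, against 3.88%) and 3 fell (5.36%, against 2.26%). The median was -0.12, against 0.01 over all tested genes. All 3 Dox libraries lay above those without Dox for 21 members and below for 28, against 34.7% and 31.9% of all genes. Leaving out ish2 replicate 3 without Dox gave 19 higher and 27 lower. Of the 56, 50 met the count cutoff of the filter in all 12 libraries. ROBO4 met it in the 3 ish2 libraries with Dox alone. SEMA3E met it in the 3 libraries of ish with Dox and in 1 other. ROBO4 and SEMA3E could be tested through the group where they were high, and so had to differ. PLXNA4 met the cutoff in 9 libraries, with all 3 of a group only in ish without Dox and ish2 with Dox. Those are its higher groups in the 2 constructs. The counts above include these genes.

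**Figure D2:**
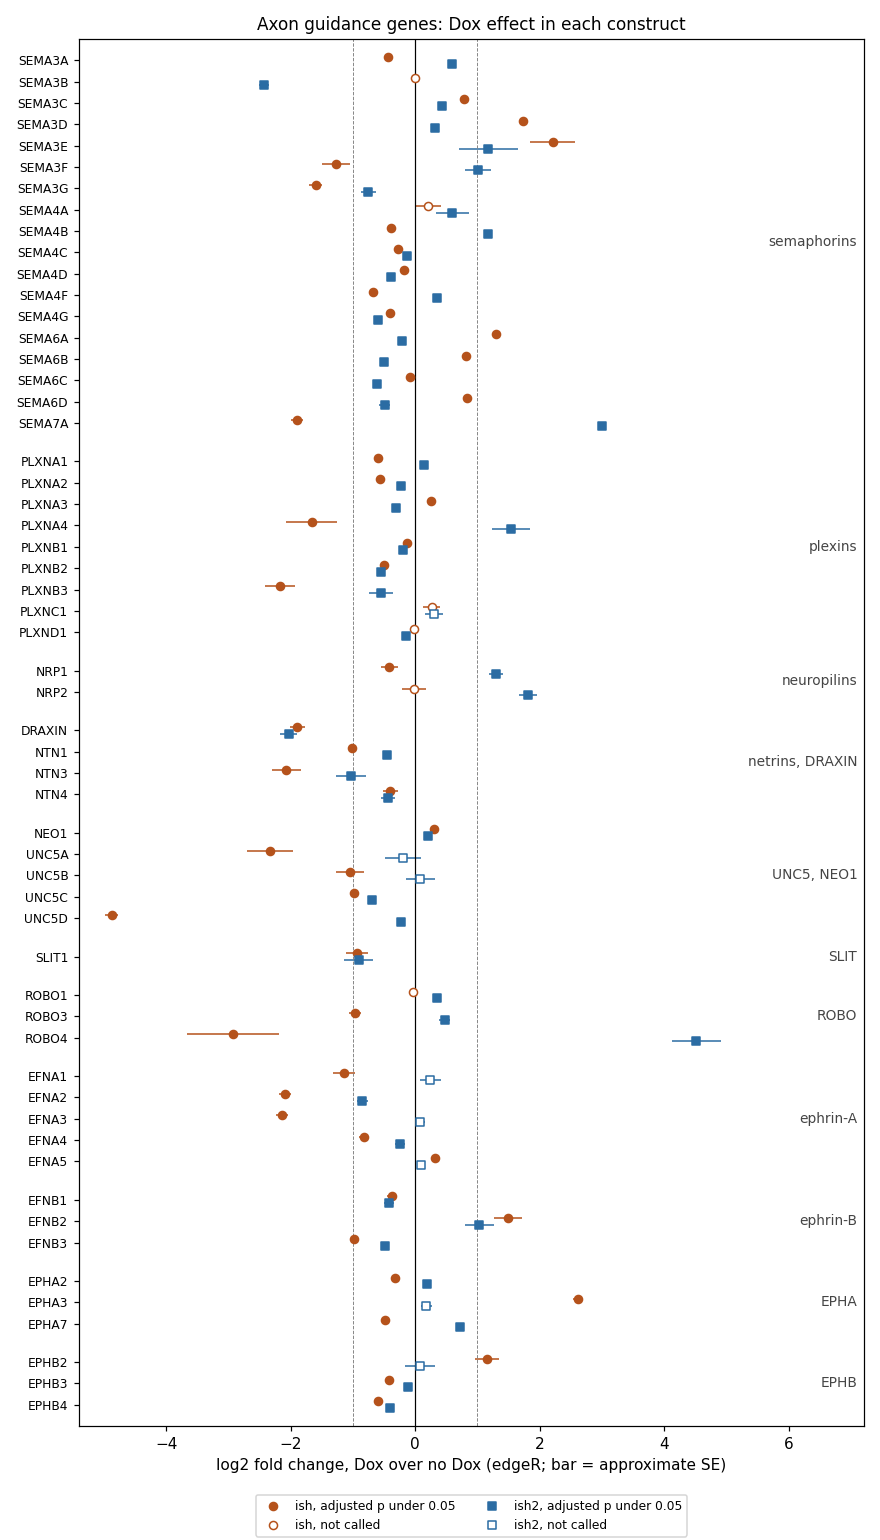
Log2 fold change, Dox over no Dox, of each of the 56 tested members (rows, by family) in ish (circles) and ish2 (squares), with bars of 1 approximate SE from edgeR. Filled points passed adjusted p under 0.05, and the dashed lines mark 2-fold. UNC5D in ish (-4.87) and ROBO4 in ish2 (4.52) lie farthest from 0, but ROBO4 met the count filter through the ish2 Dox libraries alone.

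Among the semaphorins, SEMA7A moved most, and in opposite directions. SEMA7A is a membrane-anchored semaphorin known to signal through integrins and plexin C1, and its gene spans bases 74409289 to 74433958 of chromosome 15 (GRCh38, minus strand). In ish2 it had 158.5, 160.5 and 156.7 CPM with Dox, against 20.8, 21.6 and 16.9 CPM without Dox. All Dox libraries were high and the groups lay far apart, an 8.03-fold rise (log2 fold change 3.01, SE 0.05, adjusted p = 2.53e-23). In ish the levels were 4.92, 3.49 and 4.52 CPM with Dox, against 16.3, 16.2 and 15.7 CPM without. Here all Dox libraries were low, 3.72-fold below those without (-1.89 on the log2 scale, SE 0.10, adjusted p = 9.35e-15). The ish2 effect exceeded the ish effect by 4.90 on the log2 scale (SE 0.11, edgeR adjusted p = 6.47e-22). PLXNC1, the plexin known to bind SEMA7A, was called in neither construct, with log2 fold changes of 0.27 in ish (adjusted p = 0.0766) and 0.30 in ish2 (adjusted p = 0.0678).

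The secreted class 3 semaphorins did not move as a group: of 7 tested, 3 rose and 3 fell in ish, and 5 rose and 2 fell in ish2, with SEMA3E among those that rose in each. The shares of all genes that rose and fell were 39.1% and 39.5% in ish, and 33.9% and 31.1% in ish2. SEMA3B, known as a candidate tumour suppressor on chromosome 3, had 3.91, 3.75 and 4.28 CPM in ish2 with Dox, against 21.6, 22.4 and 20.6 CPM without. The groups did not overlap, and the fall was 5.39-fold (-2.43 on the log2 scale, SE 0.08, edgeR adjusted p = 3.06e-25). In ish, SEMA3B had 27.6, 26.6 and 28.7 CPM with Dox, against 26.9, 29.1 and 27.5 without, and the libraries overlapped (log2 fold change -0.01, SE 0.05, adjusted p = 0.861). SEMA3D, a ligand studied in vessel and heart development, went the other way. It had 72.0, 67.9 and 72.2 CPM in ish with Dox, against 21.7, 20.1 and 22.4 CPM without, a 3.31-fold rise (adjusted p = 3.74e-29). In ish2 it averaged 33.3 ± 0.683 CPM with Dox and 26.6 ± 0.745 CPM without (SD, n = 3 each), a 1.25-fold rise (edgeR adjusted p = 2.29e-07). SEMA3C, another ligand of heart development, also rose in both, with log2 fold changes of 0.78 in ish and 0.43 in ish2.

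SEMA3A, the collapsin first known for repelling sensory axons, averaged 98.3 ± 2.57 CPM in ish with Dox and 133.2 ± 3.69 CPM without, and 255.1 ± 7.04 CPM in ish2 with Dox and 169.3 ± 1.22 CPM without (SD, n = 3 each). Its level thus fell 1.36-fold in ish but rose 1.51-fold in ish2 (difference 1.03, edgeR adjusted p = 1.45e-22). SEMA3F, a ligand of NRP2, did likewise at a lower level. It had 0.755, 0.498 and 0.431 CPM in ish with Dox, against 1.35, 1.34 and 1.40 CPM without, and 1.68, 1.67 and 1.66 CPM in ish2 with Dox, against 0.686, 0.826 and 0.976 CPM without. The groups did not overlap in either construct, with log2 fold changes of -1.28 and 1.01 in ish and ish2. SEMA3G, known from vessel endothelium, had 2.07, 2.09 and 2.22 CPM in ish with Dox, against 6.25, 6.38 and 6.74 without, a 3.03-fold fall (adjusted p = 1.02e-15). Its fall in ish2 was 1.68-fold (adjusted p = 1.22e-06). SEMA3E, the ligand of plexin D1, had 25, 26 and 19 reads in ish with Dox, against 6, 3 and 6 reads without. In ish2 it had 9, 6 and 12 reads with Dox, against 6, 2 and 3 without, at an adjusted p of 0.0315 that became 0.0985 without replicate 3 of ish2 without Dox.

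The transmembrane class 6 semaphorins, ligands of plexin A receptors, took opposite directions: 3 of 4 rose and 1 fell in ish, and all 4 fell in ish2. Beside them, 39.1% of all genes rose and 39.5% fell in ish, and 31.1% fell in ish2. SEMA6A had 108.3, 101.7 and 108.7 CPM in ish with Dox, against 42.7, 42.6 and 44.9 CPM without. The groups lay apart, a 2.45-fold rise (log2 fold change 1.29, SE 0.04, edgeR adjusted p = 1.97e-27). The ish2 libraries had 27.5, 26.9 and 27.8 CPM with Dox, against 31.0, 30.9 and 33.6 without, a 1.16-fold fall. SEMA6B and SEMA6D followed the same course, with log2 fold changes of 0.81 and 0.83 in ish, and -0.50 and -0.49 in ish2. SEMA6C fell in both, by 0.08 in ish and by 0.61 in ish2 on the log2 scale. The differences between the construct effects were -1.51 for SEMA6A, -1.31 for SEMA6B, -1.33 for SEMA6D and -0.53 for SEMA6C, each with an adjusted p below the threshold.

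Of the class 4 semaphorins, many of them known from immune cells, 5 of 6 fell in ish, and 3 rose and 3 fell in ish2. Of all genes, 39.5% fell in ish, and 33.9% rose and 31.1% fell in ish2. SEMA4B had 27.2, 26.1 and 26.0 CPM in ish2 with Dox, against 12.03, 11.8 and 11.3 CPM without, a 2.26-fold rise (log2 fold change 1.17, SE 0.06, edgeR adjusted p = 4.62e-18). For ish it averaged 9.53 ± 0.276 CPM with Dox and 12.4 ± 1.55 CPM without (SD, n = 3 each), a 1.30-fold fall. SEMA4F also fell in ish and rose in ish2, with log2 fold changes of -0.68 and 0.35. SEMA4C, SEMA4D, the ligand of plexin B1, and SEMA4G fell in both, with log2 fold changes between -0.60 and -0.14. SEMA4A was called in ish2 alone (0.60, adjusted p = 0.0468) and lost the call without replicate 3 of ish2 without Dox (adjusted p = 0.216).

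Among the semaphorin receptors, both neuropilins rose in ish2, as did 33.9% of all genes. NRP2 had 5.21, 5.60 and 5.46 CPM in ish2 with Dox, against 1.88, 1.61 and 1.16 CPM without. All Dox libraries were higher, by 3.49-fold on average (log2 fold change 1.80, SE 0.14, edgeR adjusted p = 1.96e-13). The NRP2 libraries of ish overlapped, with 1.41, 1.03 and 1.20 CPM with Dox, against 1.15, 1.21 and 1.33 CPM without (adjusted p = 0.912). NRP1, also a co-receptor of VEGF, had 8.22, 7.83 and 8.95 CPM in ish2 with Dox, against 3.76, 3.49 and 2.93 CPM without, a 2.46-fold rise (adjusted p = 4.7e-13). In ish it had 2.20, 2.39 and 1.94 CPM with Dox, against 2.54, 3.22 and 2.92 without, a 1.33-fold fall (adjusted p = 0.00722). The construct effects differed by 1.71 for NRP1 and 1.83 for NRP2 (edgeR adjusted p = 7.23e-11 and 3.16e-08).

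Of the 9 plexins, the signalling receptors, 1 rose and 6 fell in ish, and 2 rose and 6 fell in ish2, with median log2 fold changes of -0.51 and -0.20. Over all tested genes, 39.1% rose and 39.5% fell in ish, and 33.9% rose and 31.1% fell in ish2, with medians of -0.01 and 0.01. The 3 plexin B genes, receptors mainly of class 4, fell in both constructs, against 14.1% of all tested genes. PLXNB2 averaged 169.4 ± 2.85 CPM in ish with Dox and 240.9 ± 0.431 without, and 154.9 ± 3.41 CPM in ish2 with Dox and 227.6 ± 9.1 without (SD, n = 3 each). Its log2 fold changes of -0.51 and -0.55 in ish and ish2 did not differ beyond their error (difference -0.05, SE 0.04, edgeR adjusted p = 0.304). PLXNB3 had 0.525, 0.432 and 0.277 CPM in ish with Dox, against 1.78, 2.04 and 1.74 CPM without, a 4.50-fold fall, and fell by 0.55 on the log2 scale in ish2. Its ish2 call was lost without ish2 Dox replicate 1 (edgeR adjusted p = 0.0968) and without ish2 no-Dox replicate 2 (adjusted p = 0.0962). PLXNB3 overlaps SRPK3 on the same strand, and SRPK3 reached at most 2368 reads in a library and PLXNB3 at most 64. Reads in the overlap could have been counted for the other gene or set aside as ambiguous, a special row with 2.08 to 2.65% of each column. Of the plexin A genes, receptors of class 6 and, with neuropilins, of class 3, PLXNA1 and PLXNA4 fell in ish and rose in ish2, PLXNA2 fell in both, and PLXNA3 rose in ish and fell in ish2. PLXNA1 averaged 199.1 ± 6.91 CPM in ish with Dox and 301.8 ± 1.56 without, and 322.7 ± 7.11 CPM in ish2 with Dox and 292.2 ± 18.5 without. PLXNA4 was scarce, with 34, 25 and 47 reads in ish2 with Dox, against 15, 8 and 11 without, and 2, 4 and 11 reads in ish with Dox, against 23, 18 and 14 without. PLXND1, the SEMA3E receptor, was level in ish (-0.02, adjusted p = 0.538) and fell by 0.14 in ish2.

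The netrin ligands and DRAXIN, a secreted repellent that binds DCC and netrin, fell in both constructs: 4 of 4 tested were lower in each, against 39.5% of all genes in ish, 31.1% in ish2 and 14.1% in both. DRAXIN had 1.64, 1.70 and 1.54 CPM in ish with Dox, against 6.06, 6.51 and 5.56 CPM without. With ish2 the values were 1.27, 1.30 and 1.12 CPM with Dox, against 4.66, 5.11 and 5.28 CPM without. The Dox libraries were low in both constructs, by 3.71-fold in ish (-1.89 on the log2 scale, SE 0.12, edgeR adjusted p = 1.17e-16) and by 4.09-fold in ish2 (-2.03, SE 0.14, adjusted p = 2.33e-15). The difference of -0.14 (SE 0.20) was within its error (adjusted p = 0.549), which does not show that the effects are equal. NTN1, the main secreted netrin, had 27.5, 24.3 and 23.3 CPM in ish with Dox, against 48.4, 51.8 and 50.9 CPM without, a 2.02-fold fall (edgeR adjusted p = 6.23e-20). In ish2 it averaged 39.9 ± 1.87 CPM with Dox and 54.6 ± 1.13 CPM without (SD, n = 3 each), a 1.37-fold fall, smaller by 0.56 on the log2 scale (adjusted p = 2.62e-09). NTN3 had 10, 15 and 11 reads in ish with Dox, against 44, 52 and 58 without, and 19, 19 and 14 reads in ish2 with Dox, against 35, 29 and 36 without. NTN4, a netrin of basement membranes, fell by 0.40 and 0.44 on the log2 scale in ish and ish2.

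Of the netrin receptors, all 4 UNC5 genes fell in ish, against 39.5% of all genes, and UNC5D had the largest change of any member there. UNC5D had 1.05, 1.03 and 1.66 CPM in ish with Dox, against 34.0, 38.8 and 38.1 CPM without. The Dox libraries were all far lower, 29.3-fold below those without (-4.87 on the log2 scale, SE 0.11, edgeR adjusted p = 1.78e-25). For ish2 the levels were 20.4, 18.9 and 21.5 CPM with Dox, against 24.6, 24.8 and 22.0 CPM without, a 1.17-fold fall (adjusted p = 0.00385). The construct effects differed by 4.65 (adjusted p = 4.73e-22). UNC5C was lower in both, by 1.97-fold in ish and by 1.61-fold in ish2. UNC5A had 2, 4 and 9 reads in ish with Dox, against 21, 32 and 25 without, and was not called in ish2 (-0.19, adjusted p = 0.577). UNC5B, also a receptor of vessel sprouting, had 23.9, 25.2 and 25.6 CPM in ish with Dox, against 48.2, 53.8 and 52.7 CPM without, a 2.07-fold fall (adjusted p = 0.0026). Its ish2 libraries had 32.6, 40.1 and 42.9 CPM with Dox, against 42.9, 44.7 and 21.7 CPM without, where the low value is that of replicate 3, which stood apart. With that library the ish2 change was 0.08 (adjusted p = 0.774), and without it -0.20 (adjusted p = 0.121). The difference between constructs was 1.13 with it (adjusted p = 0.0126) and 0.86 without it (adjusted p = 0.00034). With the replicate number as a block it was 1.16 and missed the threshold (adjusted p = 0.0566). NEO1, the neogenin receptor of netrins and of repulsive guidance molecules, rose by 0.30 in ish and by 0.20 in ish2.

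**Figure D3:**
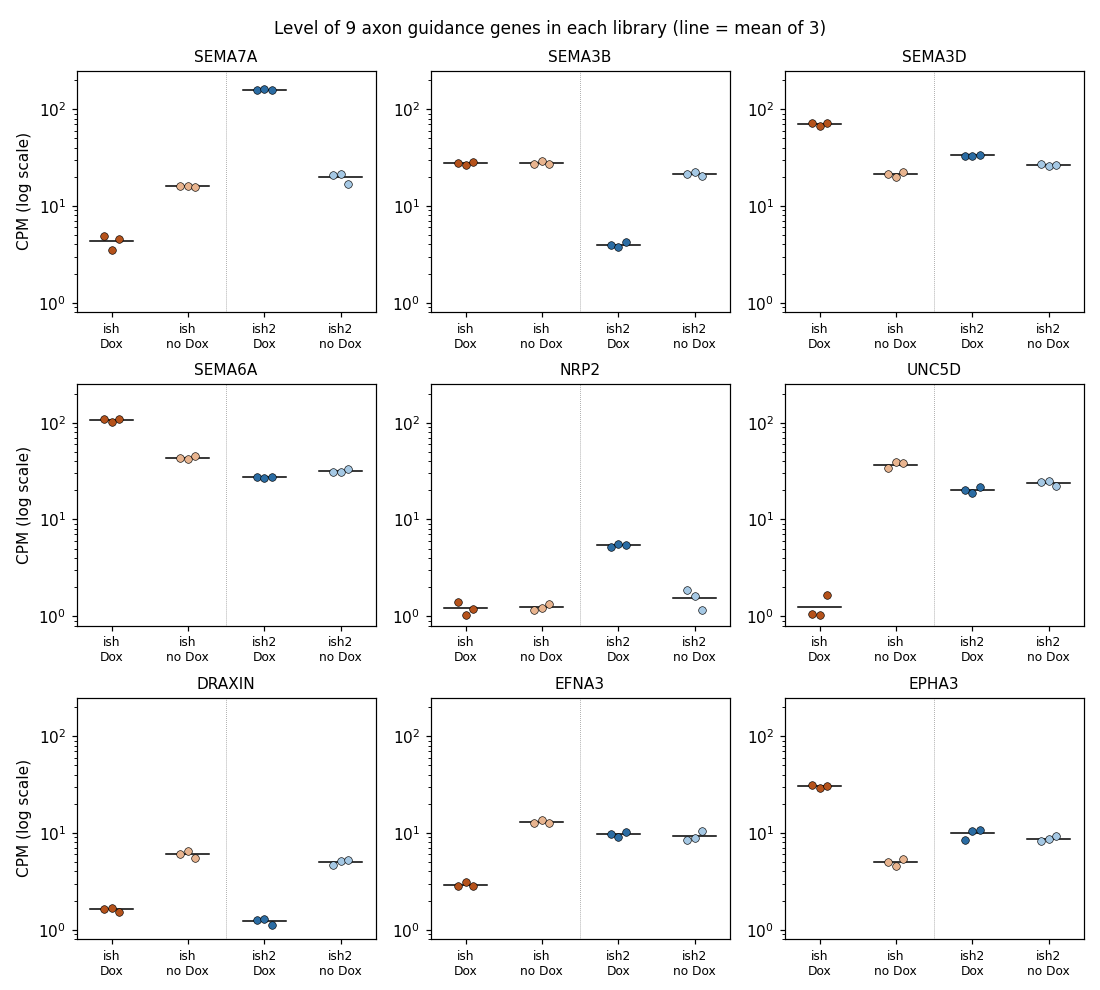
CPM on a log axis of 9 members in every library (points), in ish with Dox, ish without Dox, ish2 with Dox and ish2 without Dox, with a line at each mean of 3. SEMA7A is between 156.7 and 160.5 CPM in ish2 with Dox against 16.9 to 21.6 CPM without, and DRAXIN is low with Dox in both constructs.

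Of the SLIT receptors, ROBO1 and ROBO3 rose in ish2, and ROBO3 fell in ish. ROBO1, the main SLIT receptor here, averaged 187.5 ± 8.75 CPM in ish2 with Dox and 147.3 ± 5.72 CPM without (SD, n = 3 each), a 1.27-fold rise, and was not called in ish (-0.03, edgeR adjusted p = 0.363). ROBO3, which in mammals acts at the midline of the nervous system, averaged 6.41 ± 0.554 CPM in ish with Dox and 12.5 ± 1.57 CPM without, a 1.96-fold fall. It rose 1.39-fold in ish2 (difference 1.44, adjusted p = 1.47e-10). ROBO4, a receptor known from endothelium, had 44, 42 and 44 reads in ish2 with Dox, against 1, 1 and 3 reads without. It met the filter through those 3 Dox libraries alone, so its reads are given as a description. In ish it had 1, 1 and 0 reads with Dox, against 4, 5 and 9 without. Of the 7 endothelium markers, TEK, CLDN5 and VWF were tested, and their sum in ish2 was 10.9 to 11.2 CPM with Dox against 11.4 to 12.1 CPM without. Most of that sum was TEK, and TEK and VWF were not called in ish2. CLDN5, with at most 22 reads in an ish2 library, fell there by 1.11 on the log2 scale (edgeR adjusted p = 0.0033). KDR and CDH5 reached at most 1 and 3 reads in any library, and the part of this cell type in the ROBO4 counts was not tested. SLIT1, the 1 tested ligand, had 30, 27 and 37 reads in ish with Dox, against 51, 57 and 74 without, and 19, 16 and 20 reads in ish2 with Dox, against 35, 31 and 31 without, with log2 fold changes of -0.94 and -0.91 in ish and ish2.

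Ephrin-A ligands, which are anchored by a lipid and bind mainly EPHA receptors, fell in ish: 4 of 5 were lower and EFNA5 was higher, while in ish2 2 were lower and 3 were not called. A fall was called for 39.5% of all genes in ish and 31.1% in ish2, and a rise for 39.1% in ish. EFNA3 had 2.82, 3.12 and 2.83 CPM in ish with Dox, against 12.6, 13.5 and 12.6 CPM without, 4.41-fold lower (-2.14 on the log2 scale, SE 0.09, edgeR adjusted p = 1.24e-21). In ish2 the EFNA3 libraries overlapped, at 9.80, 9.16 and 10.1 CPM with Dox, against 8.42, 8.86 and 10.5 CPM without (adjusted p = 0.456). EFNA3 and EFNA4 share an annotated read-through gene model on their strand, so reads of that model could count for either. EFNA2 had 2.99, 2.66 and 2.49 CPM in ish with Dox, against 11.8, 11.6 and 11.3 CPM without, a 4.26-fold fall. Levels in ish2 were 5.24, 5.34 and 4.41 CPM with Dox, against 8.60, 9.50 and 8.82 CPM without, a 1.80-fold fall. EFNA1 had 1.02, 1.33 and 1.05 CPM in ish with Dox, against 2.21, 2.23 and 3.04 CPM without, a 2.21-fold fall. The fall of EFNA4 was 1.77-fold in ish and 1.19-fold in ish2, and in ish2 its adjusted p went to 0.0544 without replicate 3 of ish2 without Dox. EFNA5 rose 1.24-fold in ish and was not called in ish2 (0.09, adjusted p = 0.0835).

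Of the ephrin-B ligands, which span the membrane, EFNB2 rose in both constructs, as did 13.8% of all tested genes. EFNB1 and EFNB3 fell in both, as did 14.1% of all tested genes. EFNB2, the ligand known from arterial vessels, had 1.67, 1.46 and 1.48 CPM in ish with Dox, against 0.625, 0.479 and 0.528 CPM without, a 2.82-fold rise (edgeR adjusted p = 3.46e-07). The ish2 levels were 1.65, 1.48 and 1.09 CPM with Dox, against 0.578, 0.563 and 0.904 CPM without, a 2.04-fold rise (adjusted p = 0.000217). EFNB3 was 1.99-fold lower with Dox in ish and 1.40-fold lower in ish2, and EFNB1 was 1.30-fold and 1.34-fold lower.

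Of the EPH receptors, 6 of 14 were tested, and EPHA3 rose most. EPHA3, a receptor of ephrin-A ligands, spans bases 89107524 to 89482134 of chromosome 3 (GRCh38, plus strand). It had 31.6, 29.4 and 30.6 CPM in ish with Dox, against 4.97, 4.59 and 5.37 CPM without. All Dox libraries were high, a 6.12-fold rise (log2 fold change 2.61, SE 0.07, edgeR adjusted p = 1.14e-27). The ish2 libraries overlapped, with 8.50, 10.4 and 10.7 CPM with Dox, against 8.34, 8.60 and 9.22 CPM without (log2 fold change 0.18, adjusted p = 0.0541). That p went to 0.0449 without replicate 3 of ish2 without Dox. EPHA7 averaged 37.3 ± 0.480 CPM in ish with Dox and 52.1 ± 0.770 CPM without, and 79.5 ± 0.481 CPM in ish2 with Dox and 48.5 ± 2.21 CPM without (SD, n = 3 each), a 1.40-fold fall and a 1.64-fold rise. EPHA2, with the highest per-length level of the EPHA genes, fell 1.25-fold in ish and rose 1.14-fold in ish2. EPHB2 had 1.97, 2.52 and 1.94 CPM in ish with Dox, against 1.15, 0.862 and 0.870 CPM without, a 2.23-fold rise, and overlapped in ish2 (adjusted p = 0.791). EPHB3 and EPHB4, the EFNB2 receptor of veins, fell in both, by 0.42 and 0.61 in ish and by 0.11 and 0.41 in ish2 on the log2 scale.

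The 2 constructs share no library, so their calls can be set side by side. Of 56 tested members, 22 (39.3%) fell in both, against 14.1% of all tested genes. They include every tested netrin, DRAXIN, the plexin B genes, EFNB1, EFNB3, EFNA2, EFNA4, UNC5C, UNC5D, SLIT1, EPHB3 and EPHB4. Another 12 fell in ish and rose in ish2, against 14.1% of all genes, among them SEMA7A, SEMA3A, NRP1, PLXNA1, EPHA2 and ROBO3. The 12 include ROBO4, which passed the filter through ish2 with Dox, where it had to differ. They also include PLXNA4, which met the cutoff in all 3 libraries only in ish without Dox and ish2 with Dox, its higher groups. A rise in both was called for EFNB2, NEO1, SEMA3C, SEMA3D and SEMA3E, 5 members against 13.8% of all genes. Of these, SEMA3E passed the filter through ish with Dox, where it had to differ, and kept its ish2 call in 15 of 20 settings. A rise in ish with a fall in ish2 was seen for PLXNA3, SEMA6A, SEMA6B and SEMA6D, 4 members, and for 1831 of all 15206 tested genes. The difference between effects was called for 45 of 56 members, 31 higher in ish2 and 14 lower, against 72.6% of all genes in either direction, 37.4% higher and 35.2% lower. At 2-fold, 26 members differed, 19 higher and 7 lower, against 21.4% of all genes, 12.9% higher and 8.48% lower. The median difference was 0.33, against 0.01 over all tested genes. The 31 and the 19 include ROBO4 and PLXNA4. These differences share the libraries of the comparisons in each construct.

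**Figure D4:**
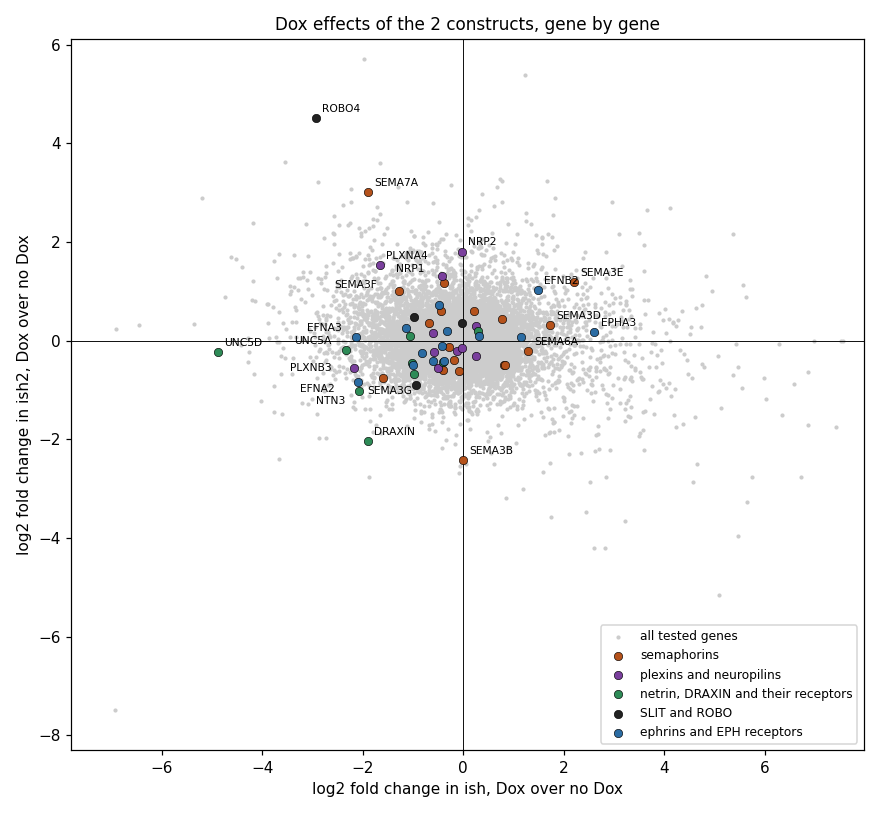
Log2 fold change, Dox over no Dox, in ish (horizontal) and ish2 (vertical) for all 15206 tested genes (grey) and the 56 tested members (coloured by family), with labels on those with larger changes. SEMA7A lies at the upper left, DRAXIN low in both constructs, SEMA3B low in ish2 alone and EPHA3 high in ish. ROBO4, also at the upper left, met the count filter through ish2 with Dox alone.

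Without Dox, ish2 and ish differed less. Of the 56 members 31 were called, 6 higher and 25 lower in ish2, against 26.1% of all genes, 13.7% higher and 12.4% lower. At 2-fold 0 of the members were called, against 0.421% of all genes (0.0986% higher and 0.322% lower), and the median was -0.12 against -0.00378 over all tested genes. EPHA3 averaged 8.72 ± 0.450 CPM in ish2 and 4.98 ± 0.389 CPM in ish (SD, n = 3 each), a log2 fold change of 0.81 (edgeR adjusted p = 3.72e-08). UNC5D averaged 23.8 ± 1.57 CPM in ish2 and 37.0 ± 2.61 CPM in ish (-0.63, adjusted p = 7.37e-09), and SEMA6A 31.8 ± 1.53 and 43.4 ± 1.27 CPM (-0.45, adjusted p = 8.91e-10). SEMA3A averaged 169.3 ± 1.22 CPM in ish2 and 133.2 ± 3.69 CPM in ish (0.35, adjusted p = 5.33e-11).

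Genes that act with these families were counted from 2 further lists. Of 58 guidance effectors, the cytoplasmic proteins downstream of the receptors, 56 were tested, and 19 rose and 26 fell in ish, while 13 rose and 29 fell in ish2. Of all tested genes 39.1% rose and 39.5% fell in ish, and 33.9% rose and 31.1% fell in ish2. Without ish2 Dox replicate 3, 8 effectors rose in ish2 in place of 13. The medians of the list were -0.07 and -0.19, against -0.01 and 0.01 over all tested genes. In ish the smallest p-values among them were those of PTK2, the focal adhesion kinase, at -1.21, DPYSL5, a collapsin response mediator protein, at 1.90, SRGAP1 at 2.23, and PAK2 at -1.25 (log2 fold changes). In ish2 they were MICAL1, an oxidase of actin filaments downstream of plexins, at -1.07, ENAH at -0.65, ABL1 at -0.52 and FARP1 at -0.82. The difference between constructs was 3.52 for VAV3, an exchange factor downstream of EPH receptors, and -2.48 for DPYSL5.

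Of 34 co-receptors and modulators, 30 were tested, and 11 rose and 16 fell in ish, while 8 rose and 17 fell in ish2, beside the same shares of all genes. Medians of this list were -0.23 in ish and -0.17 in ish2, against -0.01 and 0.01 over all tested genes. L1CAM and NRCAM, adhesion molecules that form complexes with neuropilins, fell in ish by 1.96 and 1.66 on the log2 scale. In ish2 L1CAM fell by 0.36 and NRCAM rose by 0.74, and the NRCAM effects differed by 2.40 (edgeR adjusted p = 2.77e-33). The heparan sulphate proteoglycans GPC1 and SDC2 had 1.32 and 0.10 in ish, and -0.30 and -1.26 in ish2. ADAM17, a membrane protease that sheds cell-surface proteins, had -1.17 in ish and 0.02 in ish2 (adjusted p = 0.666).

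The 15 members below the filter reached at most 12 reads in any library, and 9 of them at most 3 reads. They are the netrin receptor DCC, the netrin NTN5, SLIT2, SLIT3 and ROBO2, the class 5 semaphorins SEMA5A and SEMA5B, and the EPH receptors EPHA1, EPHA4, EPHA5, EPHA6, EPHA8, EPHA10, EPHB1 and EPHB6. EPHA5 had 6, 7 and 4 reads in ish with Dox, against 2, 1 and 2 without. EPHA4 had 9, 6 and 7 reads in ish2 with Dox, against 4, 3 and 3 without. With no filter on low counts, 13 members were called higher in ish, against 12, and 7 at 2-fold, against 6.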

How the data were processed

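12 RNA samples of RD cells were sequenced as stranded mRNA libraries with 75-base paired reads, per the labels' protocols. GRCh38, STAR 2.7.3a, Subread 1.6.3, featureCounts and Trim Galore 0.6.4 are listed in the submitters' processing notes. For the counting, annotation and strand setting are not given in the sources used. What the authors deposited are raw counts for each gene symbol. The table's 5 special rows, 21.0 to 24.4% of each column, were left out. Its columns Sh1 and Sh2 were taken as ish and ish2 by name.

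filterByExpr by group kept 15206 genes and left out 11279. Counts were scaled by TMM and fitted with 4 group means in edgeR 4.0.16 (glmQLFit with robust spread, glmQLFTest, R 4.3.3), with Benjamini-Hochberg adjustment over all tested genes. SE was derived from the test, as the ratio of the absolute log2 change to the root of F, and is approximate. The common dispersion was 0.000596, so small folds pass the test. No block was used in the main fit, since the labels do not say that a replicate number marks a shared culture or day. Residuals of libraries with the same replicate number correlated between -0.128 and 0.0447, which cannot show that the numbers pair no samples. Exact two-sided permutation of 3 against 3 libraries cannot go below 0.1, the p of NT5E in both constructs. On simulated data of 15206 genes, 87.2% of 94 genes planted at 1.5-fold and 94.2% of 103 at 2-fold were called in ish. In ish2, 81.1% of 90 and 87.2% of 109 were called. All other genes were left unchanged there, unlike in these data, so the shares need not carry over. Gene positions and lengths came from GENCODE for GRCh38 and promoters from RefSeq (GRCh38.p14).

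The members and gene lists were chosen with earlier results of these data known. Values in every library are given for members changed 2-fold with at least 1 CPM. Other members are given by range, up to 3 a family, and up to 4 genes per further list by smallest p. Genes outside these limits were named after their values were seen. Alternatives were other scalings, filters, DESeq2 1.42.0, limma-voom 3.58.1, a replicate block, a fit of each construct alone and leaving out each library.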

Additional observations from a re-analysis of the deposited data

Results flagged for a closer look

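For 26 members the Dox effect differed between the constructs by at least 2-fold, by the test of the difference itself (ish2 effect minus ish effect, log2 scale, edgeR adjusted p under 0.05), which 21.4% of all tested genes also passed. No member's values were tested for an outlying library, since each group held 3.

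The effect was higher in ish2 for 19 of them. Among semaphorins and their receptors the difference was 4.90 for SEMA7A, 2.29 for SEMA3F, 1.56 for SEMA4B, 1.03 for SEMA3A, 1.03 for SEMA4F, 3.20 for PLXNA4, 1.62 for PLXNB3, 1.83 for NRP2 and 1.71 for NRP1. That of PLXNA4 rests on 2 to 47 reads per library, and it met the count cutoff in all 3 libraries only in its higher group of each construct. Among netrins and UNC5 receptors it was 4.65 for UNC5D, 2.14 for UNC5A, 1.13 for UNC5B and 1.04 for NTN3. ROBO4 had a fitted difference of 7.45, which rests on 0 to 9 reads per library in 3 of its 4 groups and on a filter met through ish2 with Dox alone, and ROBO3 had 1.44. Ephrins and EPH receptors gave 2.21 for EFNA3, 1.39 for EFNA1, 1.24 for EFNA2 and 1.19 for EPHA7.

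The effect was lower in ish2 for 7: EPHA3 (-2.43), SEMA3B (-2.42), SEMA6A (-1.51), SEMA3D (-1.40), SEMA6D (-1.33), SEMA6B (-1.31) and EPHB2 (-1.08).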

How the results depend on the processing

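Each member's effect in ish, in ish2 and their difference was recomputed under up to 22 settings, 12 of which left out 1 library. Of 168 such results, 159 kept their side of the threshold throughout, and no called result reversed. Some results that were not called changed sign between settings, such as UNC5B in ish2 (-0.198 to 0.238) and NRP2 in ish (-0.147 to 0.072). The calls that moved were weak or scarce genes in ish2 (SEMA4A, SEMA3E, PLXNB3, EFNA4, EPHA3, EFNA5, PLXNC1), PLXNC1 in ish, and the UNC5B difference. In ish2, SEMA4A kept its call in 8 of 22 settings (adjusted p 0.0438 to 0.216) and SEMA3E in 15 of 20 (0.014 to 0.14), losing it with DESeq2 and without ish2 Dox replicate 1 or 3 or ish2 no-Dox replicate 2 or 3. PLXNB3 lost its call without ish2 Dox replicate 1 or ish2 no-Dox replicate 2 (0.00423 to 0.0968 over the settings), and EFNA4 without ish2 no-Dox replicate 3 (0.000317 to 0.0544). EPHA3 was gained in 4 of 22 (0.00533 to 0.389), with no filter, with the block, and without ish2 Dox replicate 1 or ish2 no-Dox replicate 3. EFNA5 was gained without ish2 Dox replicate 2 (0.0454 to 0.569), and PLXNC1 without ish no-Dox replicate 2 in ish (0.0334 to 0.222) and without ish2 no-Dox replicate 1 in ish2 (0.0208 to 0.334). UNC5B spanned 3.62e-27 to 0.0242 in ish, 0.121 to 0.954 in ish2 and 6.71e-06 to 0.0566 for the difference. The stricter CPM filter leaves the scarcest members untested. With the replicate block, 12 members rose and 38 fell in ish, and 20 rose and 28 fell in ish2, as without it, but the UNC5B difference (1.16) was lost (adjusted p = 0.0566), SEMA4A in ish2 was lost (adjusted p = 0.059) and EPHA3 in ish2 was gained (0.18, adjusted p = 0.0445). For Dox against no Dox in ish2, members at 2-fold were 6 to 8 higher with a library left out, against 9, and guidance effectors 8 to 13 higher, lowest without ish2 Dox replicate 3, against 13.

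The comparison of ish2 with ish without Dox moved most. At 2-fold, 15 genes were higher and 49 lower, against 23 higher with no filter, 3 higher and 17 lower with a CPM filter, and 4 higher and 14 lower with DESeq2, which called 1224 genes lower at adjusted p under 0.05 where edgeR called 1886. Members at least 2-fold lower numbered 1 with limma-voom and 0 to 1 with a library left out, against 0. In that comparison co-receptors and modulators were higher for 5 with DESeq2 size factors, against 3, and lower for 7 with total counts, upper quartile scaling or the CPM filter, against 4, with 2 to 6 lower when a library was left out. The median member level in ish without Dox was 3.65 CPM per kb by union of exons, against 4.68. The cause of these moves was not tested. Depth limits the members with few reads, such as ROBO4, SEMA3E, UNC5A and PLXNA4.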
